A study of Mus musculus with 53 samples.

Results

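A set of 9 genes of the inflammatory CC chemokine family were followed in bone marrow-derived macrophages (BMDMs): Ccl2, Ccl7, Ccl12, Ccl8, Ccl5, Ccl9, Ccl6, Ccl3 and Ccl4. They were taken by gene symbol, 9 of the 23847 loci in the expression tables, and all 9 were above 0 FPKM in each of the 53 samples. FPKM is the number of fragments scaled to transcript length and to all mapped fragments of the sample. The study asked which genes the cytokine IL-4 switches on and off in macrophages, and whether this needs the transcription factor STAT6. All animals were C57BL/6 mice aged 8 to 12 weeks. WT mice were compared with a full-body Stat6 knockout (Stat6-/-), so every cell of those animals lacked the intact gene and an effect of earlier development cannot be told apart from one in the macrophage. Marrow cells of both genotypes were grown for 6 days with L929 supernatant, a source of M-CSF. IL-4 was then given at 20 ng/ml, and cells were collected 1, 3, 6 or 24 h later beside untreated controls of the same time and of 0 h. Each WT group held 4 samples, except 24 h of IL-4, which held 3 (replicates 2 to 4, replicate 1 not analysed here). Each Stat6-/- group held 2 samples.

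Chemokines are small secreted proteins that draw leukocytes along a gradient by acting on G protein-coupled receptors. The CC family carries adjacent cysteines near its amino terminus, and many of its inflammatory members arose by duplication and lie side by side on mouse chromosome 11. CCL2, CCL7 and CCL12 attract monocytes mainly through CCR2, mouse CCL8 acts on CCR8, and CCL3, CCL5, CCL6 and CCL9 act on CCR1. CCL4 attracts monocytes and T cells.

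The 9 genes formed 2 groups on chromosome 11 (build mm10). Ccl2 (82035577 to 82037452), Ccl7 (82045712 to 82047523), Ccl12 (82101845 to 82103399) and Ccl8 (82115185 to 82116799) made up the first group, spanning 81.2 kb, and all 4 are transcribed from the plus strand. Ccl5 (83525779 to 83530518), Ccl9 (83572917 to 83578636), Ccl6 (83587886 to 83593087), Ccl3 (83647843 to 83649378) and Ccl4 (83662584 to 83664683) made up the second, spanning 139 kb, with Ccl4 alone on the plus strand. A gap of 1409 kb with 34 other loci lay between the groups. Within them, the tables listed 2 further loci. One was Ccl11, which encodes eotaxin and reached at most 0.0788 FPKM. The other was the non-coding E230016K23Rik, which overlaps Ccl6 and reached at most 0.306 FPKM.

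RefSeq promoters (GRCm38.p6, the same coordinates as mm10) were matched for 5 of the 9 genes and not for Ccl2, Ccl7, Ccl5 and Ccl4. The 250 bases before the start of each gene are shown because Ccl12 and Ccl8 rose with IL-4 while Ccl9, Ccl6 and Ccl3 of the second group were not called higher. Capitals mark matches on either strand to TATAAA, to the AP-1 site TGANTCA or to the NF-kB consensus. The windows are chr11:82101595-82101844 on the plus strand for Ccl12, chr11:82114935-82115184 on the plus strand for Ccl8, chr11:83578637-83578886 on the minus strand for Ccl9, chr11:83593088-83593337 on the minus strand for Ccl6 and chr11:83649379-83649628 on the minus strand for Ccl3.
Ccl12: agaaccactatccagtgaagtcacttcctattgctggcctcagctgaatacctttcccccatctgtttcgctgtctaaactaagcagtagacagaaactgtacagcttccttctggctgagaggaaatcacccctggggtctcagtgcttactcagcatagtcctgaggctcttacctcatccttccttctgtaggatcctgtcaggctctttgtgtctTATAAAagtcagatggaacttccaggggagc
Ccl8: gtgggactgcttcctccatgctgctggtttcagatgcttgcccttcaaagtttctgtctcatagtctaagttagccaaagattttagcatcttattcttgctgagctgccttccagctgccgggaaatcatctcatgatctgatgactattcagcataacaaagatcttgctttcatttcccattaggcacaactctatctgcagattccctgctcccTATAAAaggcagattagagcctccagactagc
Ccl9: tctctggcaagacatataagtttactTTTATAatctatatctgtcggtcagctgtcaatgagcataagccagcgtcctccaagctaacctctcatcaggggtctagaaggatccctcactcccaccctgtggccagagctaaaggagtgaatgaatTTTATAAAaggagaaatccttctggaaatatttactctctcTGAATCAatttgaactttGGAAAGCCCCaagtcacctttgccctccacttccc
Ccl6: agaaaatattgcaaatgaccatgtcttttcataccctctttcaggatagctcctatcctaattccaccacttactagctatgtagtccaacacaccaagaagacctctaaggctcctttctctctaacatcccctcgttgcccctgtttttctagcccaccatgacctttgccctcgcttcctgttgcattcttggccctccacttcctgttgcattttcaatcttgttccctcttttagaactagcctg
Ccl3: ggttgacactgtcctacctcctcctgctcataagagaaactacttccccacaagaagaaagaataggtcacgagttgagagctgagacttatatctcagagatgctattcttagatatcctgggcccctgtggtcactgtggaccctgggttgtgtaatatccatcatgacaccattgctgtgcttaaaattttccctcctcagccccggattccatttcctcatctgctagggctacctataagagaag
Ccl12 held TATAAA beginning 31 bases before its start and Ccl8 held it 32 bases before, both on the gene's own strand. TATAAA occurred in 12.4% of the 32851 RefSeq promoters over the same window. Ccl9 held TATAAA further upstream, with overlapping matches on both strands from 94 bases before its start. Another match, on the opposite strand, began 224 bases before its start. Ccl9 also held an AP-1 match 53 bases before its start (6.75% of promoters) and an NF-kB match 35 bases before its start (7.25%). The searched letters were not found in the windows of Ccl6 and Ccl3. In none of the 5 windows was there a match to the STAT6 site, TTC and GAA separated by 4 bases (5.85% of promoters), to the same letters separated by 3 bases (7.02%) or to the interferon-response element, GAAA repeated after 2 bases (2.98%).

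Sequencing depth relative to the median sample ranged from 0.706 to 1.55, with overlapping ranges in both genotypes, and no pair of samples held identical values. Stat6 was lower in all 18 Stat6-/- samples (14.3 to 24.0 FPKM) than in all 35 WT samples (58.7 to 90.6 FPKM). The sum of macrophage markers (8 of 9 listed) was 2706 to 4459 FPKM in WT and 3613 to 4978 FPKM in Stat6-/- samples. Neutrophil markers (7 of 8 listed, among them S100a8 and S100a9) summed to 226 to 631 FPKM in WT and 597 to 1088 FPKM in Stat6-/- samples. All 7 stromal and all 5 erythroid markers stayed below 1 FPKM in every sample, and the B cell, dendritic cell and mast cell lists summed to at most 8.49 FPKM in any sample. The T and NK cell list (7 genes, 1 of them above 1 FPKM) summed to at most 15.6 FPKM and the eosinophil list (5 genes, 2 above 1 FPKM) to at most 16.0 FPKM.

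In WT controls at 0 h all 5 means of the second group were above all 4 of the first. The highest mean was that of Ccl5 (RANTES, 278 ± 158 FPKM, SD, n = 4), followed by Ccl9 (268 ± 25.5 FPKM), Ccl4 (149.97 ± 8.15 FPKM), Ccl3 (94.2 ± 7.45 FPKM) and Ccl6 (90.9 ± 15.9 FPKM). Of the first group, Ccl2 (16.2 ± 6.78 FPKM) was highest, ahead of Ccl7 (4.71 ± 2.54 FPKM), Ccl12 (2.31 ± 0.74 FPKM) and Ccl8 (1.17 ± 0.349 FPKM). The ranges of neighbours in this order overlapped for Ccl5 and Ccl9, for Ccl3 and Ccl6 and for Ccl7 and Ccl12. After 6 h of IL-4, Ccl7 (141 ± 60.8 FPKM) and Ccl2 (98.1 ± 38.4 FPKM) came next to Ccl5 and Ccl9, and the ranges of Ccl5, Ccl9, Ccl7, Ccl2 and Ccl4 overlapped from each neighbour to the next. After 24 h of IL-4, Ccl9 was highest (378 ± 83.4 FPKM, n = 3), without overlap with Ccl6 (118 ± 15.9 FPKM, n = 3).

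**Figure D1:**
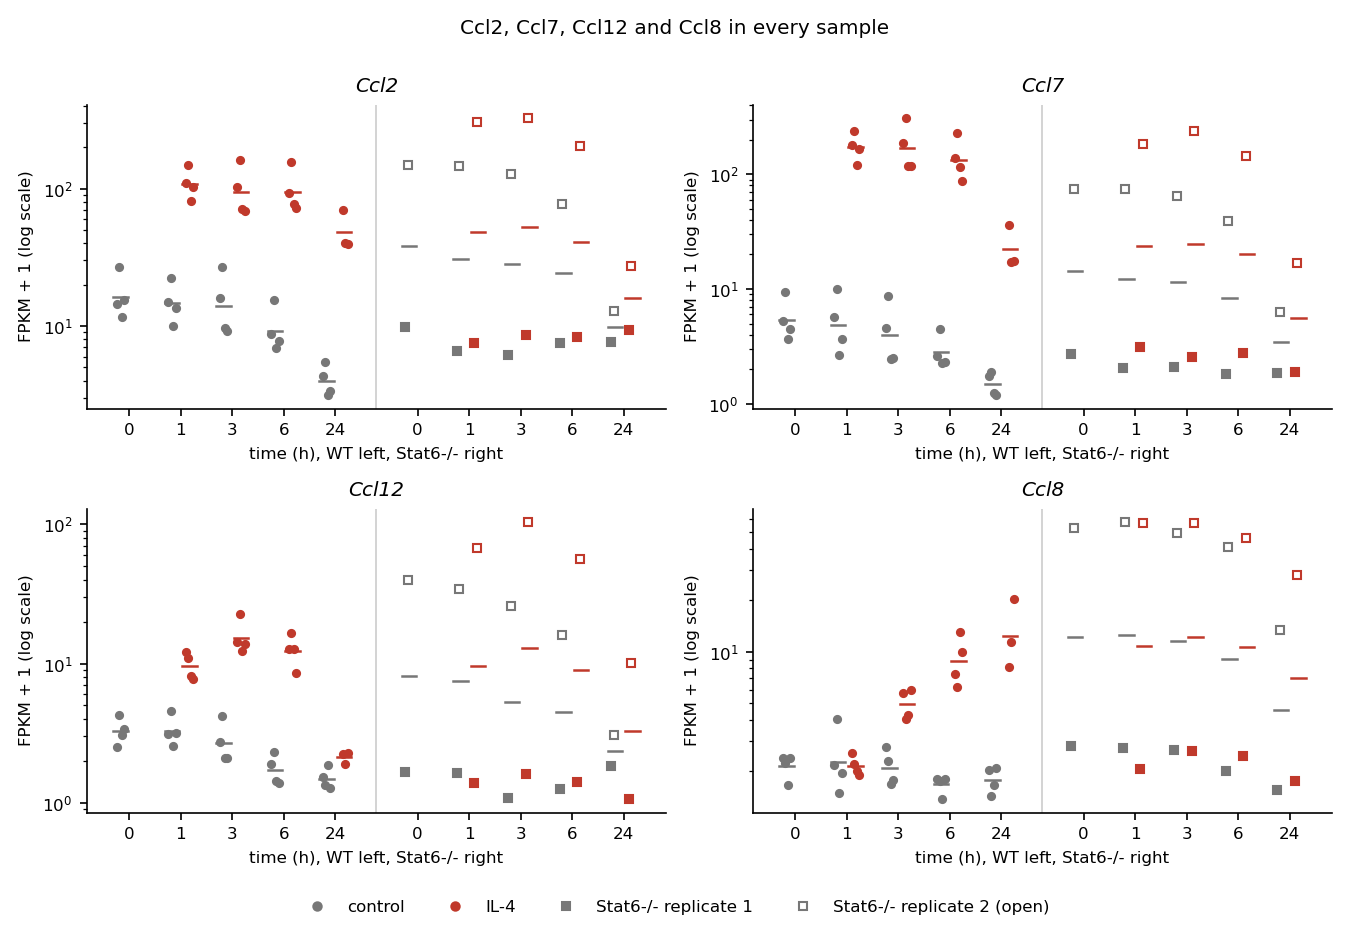
FPKM + 1 (log axis) of the genes of the first chromosome 11 group in every sample against time, WT on the left and Stat6-/- on the right of each panel, with grey for control, red for IL-4, open squares for Stat6-/- replicate 2 and bars for the mean of the log values. In WT the IL-4 samples of Ccl2 and Ccl7 lie above all controls of the same time, and Stat6-/- replicate 2 lies above replicate 1 in every group, least so for Ccl2 and Ccl12 in the 24 h controls. Replicate 2 was above replicate 1 in all 9 Stat6-/- groups for 15.6% of the loci tested.

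Before the responses, the Stat6-/- replicates need a separate account, because replicate 2 stood apart from replicate 1 in most of these genes. Ccl5 was at 197, 118, 92.2, 64.5 and 32.4 FPKM in the untreated samples of replicate 1 at 0, 1, 3, 6 and 24 h. In replicate 2 it was at 3829, 3862, 3459, 2943 and 1419 FPKM. Replicate 2 thus exceeded every WT sample, the highest of which was at 585 FPKM. In untreated samples from 0 to 6 h, Ccl2 was at 8.86, 5.54, 5.2 and 6.59 FPKM in replicate 1 and at 148, 144, 127 and 76.3 FPKM in replicate 2. At 24 h the values were 6.6 and 11.8 FPKM, so that the replicates came closer. Over the 9 Stat6-/- groups, the median ratio of replicate 2 to replicate 1 was 24.4 for Ccl2, 59.7 for Ccl7, 130.5 for Ccl12, 32.1 for Ccl8 and 42.7 for Ccl5. It was 5.23 for Ccl4, 2.26 for Ccl3, 1.8 for Ccl6 and 1.12 for Ccl9. For Ccl7, Ccl8, Ccl5 and Ccl4 the difference in log2(FPKM + 1) was at least 1 in all 9 groups, which held for 136 of the 11146 loci tested (1.22%).

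Other transcripts moved with this replicate. Irf7, which encodes a transcription factor of the interferon response, was at 51.2 to 245 FPKM in replicate 1 and at 383 to 1242 FPKM in replicate 2. The interferon-stimulated genes Isg15, Ifit1, Mx1, Rsad2 and Oasl1, chosen after their values were seen, were each higher in replicate 2 in 9 of 9 groups, with median ratios of 6.37, 4.95, 6.32, 6.1 and 8.33. The receptor gene Ccr2 was higher in 9 of 9 groups as well, with a median ratio of 3.15. Of the 11146 loci tested, 1735 (15.6%) were higher in replicate 2 in all 9 groups. Stat6 itself was at 14.3 to 21.3 FPKM in replicate 1 and at 19.5 to 24.0 FPKM in replicate 2, below all WT samples in both. The macrophage marker sum was 3613 to 4170 FPKM in replicate 1 and 4228 to 4978 FPKM in replicate 2, and that of neutrophil markers 646 to 1088 FPKM and 597 to 789.8 FPKM. The part of any of these in the chemokine levels was not tested. In such bulk samples, a change in the number of cells of one kind and a change in RNA per cell cannot be told apart. Results that rest on the Stat6-/- samples are given with and without replicate 2.

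**Figure D2:**
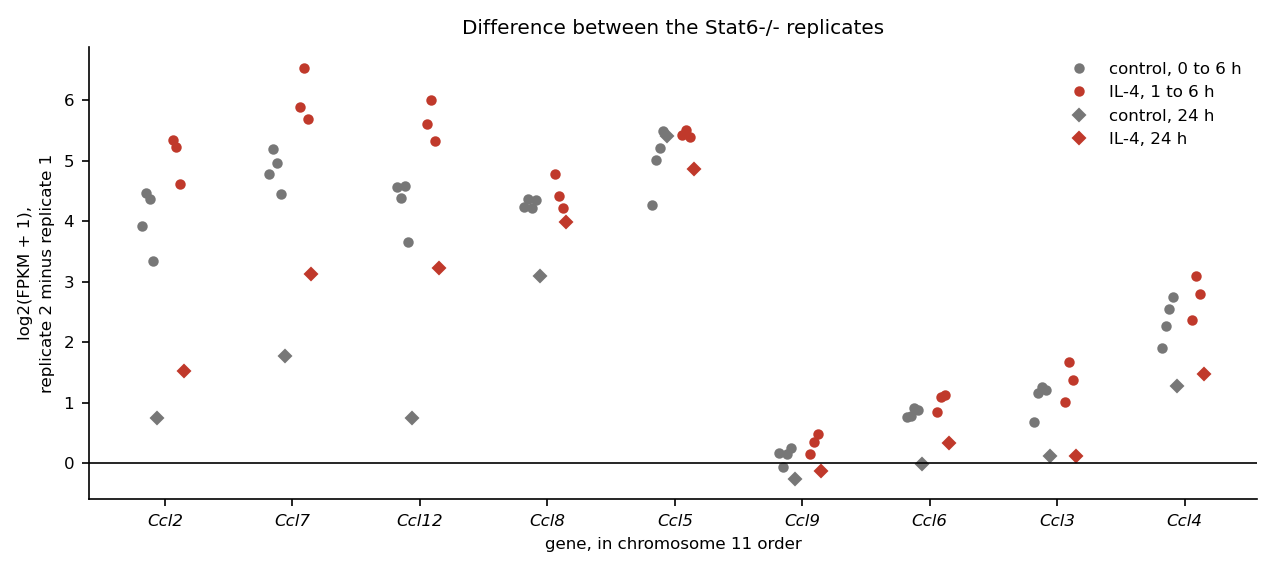
Difference in log2(FPKM + 1) between Stat6-/- replicates 2 and 1 for the 9 genes in chromosome order, 1 point per group, grey for control, red for IL-4 and diamonds for 24 h. The differences are largest for Ccl2, Ccl7, Ccl12, Ccl8 and Ccl5, shrink at 24 h for Ccl2, Ccl7 and Ccl12, and lie near 0 for Ccl9.

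The first comparison asked how IL-4 changed these genes in WT cells. All values of change are differences in log2(FPKM + 1), which understates changes of genes near or under 1 FPKM. Calls required an adjusted p below 0.05 (limma over all 53 samples, Benjamini-Hochberg over 11146 loci) and an absolute log2 change of 1 or more. By this rule 1 of the 9 genes rose at 1 h, 2 rose and 1 fell at 3 h, 3 rose at 6 h and 3 rose at 24 h. Of all loci, 1.09%, 2.61%, 3.18% and 3.91% were called higher at these times and 0.395%, 1.27%, 2.36% and 4.58% lower. In a fit that adds the replicate number as a block, there were 3 higher at 1 h, 4 higher and 1 lower at 3 h, 4 higher at 6 h, and 3 higher and 1 lower at 24 h, against 1.15%, 2.66%, 3.21% and 4.01% of loci called higher and 0.395%, 1.34%, 2.52% and 4.86% lower. The same counts of 3, 5 and 4 calls at 1, 3 and 6 h, and 3 at 24 h, were obtained with no block and without Stat6-/- replicate 2, which left every WT sample in. Of all loci, 1.14%, 2.66%, 3.2% and 3.94% were then called higher and 0.395%, 1.33%, 2.5% and 4.82% lower. Calls by adjusted p alone numbered 1, 4, 5 and 4 of 9, against 9.39%, 28.9%, 41.2% and 55% of loci. Every IL-4 sample lay above every control for 3, 4, 4 and 5 of the 9 genes (8.27%, 20.8%, 23.8% and 27.4% of loci) and below every control for 1, 2, 3 and 0 (7.81%, 18.1%, 22.3% and 37.1%). The genes that rose by the call rule all lie in the first group. The median change of the 9 genes was -0.07, 0.05, 0.14 and 0.52 at 1, 3, 6 and 24 h, against -0.02, 0.01, -0.00 and -0.07 over all loci.

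Ccl7, which attracts monocytes through CCR2, showed the strongest increase. It was at 4.73, 9.02, 1.67 and 2.65 FPKM in the 1 h controls (replicates 1 to 4) and at 179.5, 238, 120.0 and 166 FPKM after 1 h of IL-4. At 3 h the controls were at 3.61, 7.69, 1.44 and 1.49 FPKM and the IL-4 samples at 188, 306, 118 and 118 FPKM. Every IL-4 sample was above every control at both times. At 6 h the means were 1.92 ± 1.06 FPKM and 141 ± 60.8 FPKM (SD, n = 4 each), and at 24 h 0.516 ± 0.353 FPKM (n = 4) and 22.6 ± 10.6 FPKM (n = 3). The ratio of the means was 38.9, 51.3, 73.7 and 43.7 at 1, 3, 6 and 24 h. The log2 changes at these times were 5.14 ± 1.26 (SE, adjusted p = 0.00376), 5.42 ± 1.26 (adjusted p = 0.000757), 5.58 ± 1.26 (adjusted p = 0.000383) and 3.90 ± 1.36 (adjusted p = 0.0145). At 1 h the call was lost without WT replicate 1, 3 or 4 (adjusted p = 0.0515 to 0.0666), and at 24 h without replicate 2, 3 or 4 (adjusted p = 0.0799 to 0.101). With WT samples alone and the replicate block, it held whichever WT replicate was left out, with changes of 5.02 to 5.33 at 1 h and 3.85 to 3.98 at 24 h.

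Ccl2, the best-known monocyte chemoattractant of the family, rose by less, and its ratio to the control was highest at 24 h. At 6 h the controls were at 7.7, 14.5, 5.88 and 6.82 FPKM and the IL-4 samples at 91.4, 154, 75.9 and 70.9 FPKM. At 24 h the controls were at 3.36, 4.51, 2.16 and 2.38 FPKM and the IL-4 samples (replicates 2 to 4) at 68.5, 39.4 and 38.4 FPKM. At all 4 times the IL-4 samples lay above the controls, with ratios of the means of 7.7, 6.89, 11.2 and 15.7. Between 1 and 24 h the IL-4 mean went from 110 to 48.7 FPKM and the control mean from 14.2 to 3.10 FPKM. The response at 24 h minus that at 1 h was 0.70 ± 1.52 (SE, limma adjusted p = 0.734) without the block. With it, the difference was 0.70 ± 0.59 (adjusted p = 0.304). The changes at 3, 6 and 24 h were 2.76 ± 1.03 (SE, adjusted p = 0.0397), 3.35 ± 1.03 (adjusted p = 0.00797) and 3.58 ± 1.11 (adjusted p = 0.00654). At 1 h it was 2.89 ± 1.03 (adjusted p = 0.0747), and with the replicate block 2.89 ± 0.40 (adjusted p = 4.89e-07). In the limma fit with the block, the changes at 3, 6 and 24 h were also called (adjusted p = 4.13e-07, 5.47e-09 and 6.65e-09). Without a block, the 3 h call was lost whichever WT replicate was left out (adjusted p = 0.138 to 0.179), the 6 h call without replicate 1, 3 or 4 (0.0538 to 0.0624) and the 24 h call without replicate 2, 3 or 4 (0.0506 to 0.058), while the changes stayed between 2.71 and 3.65.

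Ccl12, another CCR2 ligand, reached its highest levels with IL-4 at 3 and 6 h. In controls and IL-4 samples at 1 h it was at 2.36 ± 0.869 FPKM and 8.75 ± 2.11 FPKM (SD, n = 4 each), and at 3 h at 1.79 ± 0.996 FPKM and 14.8 ± 4.63 FPKM. At 6 h the controls were at 0.892, 1.32, 0.442 and 0.394 FPKM and the IL-4 samples at 11.7, 15.7, 11.8 and 7.53 FPKM. The groups did not overlap at these times. At 24 h the controls had 0.5 ± 0.27 FPKM and the IL-4 samples 1.14 ± 0.205 FPKM (n = 3), with a change of 0.52 ± 1.21 (SE, adjusted p = 0.737). Here too the groups did not overlap, narrowly, with controls up to 0.873 FPKM and IL-4 samples from 0.901 FPKM. The change at 6 h was 2.84 ± 1.12 (adjusted p = 0.0392) without the block, and this call was lost whichever WT replicate was left out (adjusted p = 0.134 to 0.171). In the limma fit with the block, the 6 h change was 2.84 ± 0.41 (adjusted p = 2.94e-07). Changes of 1.55 at 1 h (adjusted p = 0.497) and 2.52 at 3 h (adjusted p = 0.09) were called with the replicate block (adjusted p = 0.00546 and 3.41e-06).

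Ccl8, which acts on CCR8 in the mouse, rose late. At 1 h the controls were at 1.19, 3.03, 0.506 and 0.963 FPKM and the IL-4 samples at 1.56, 1.21, 1.02 and 0.9 FPKM, and these ranges overlapped. At 6 h the controls were at 0.804, 0.762, 0.386 and 0.819 FPKM and the IL-4 samples at 6.39, 5.27, 12.1 and 8.95 FPKM. At 24 h the controls were at 1.04, 0.431, 0.666 and 1.08 FPKM and the IL-4 samples at 7.2, 10.4 and 19.5 FPKM. From 3 h on, every IL-4 sample was above every control. In the fit with the block, the changes in order of time were -0.07 ± 0.25, 1.24 ± 0.25, 2.39 ± 0.25 and 2.84 ± 0.27 (SE), with adjusted p = 7.82e-05, 2.21e-10 and 2.56e-11 for the 3 later ones. Without the block only the 24 h change was called (2.80 ± 1.14, adjusted p = 0.0365), and this call was lost whichever WT replicate was left out (adjusted p = 0.0837 to 0.192). The 24 h response exceeded the 1 h response by 2.91 ± 0.36 with the block (adjusted p = 2.52e-08) and by 2.86 ± 1.55 without it (adjusted p = 0.131).

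**Figure D3:**
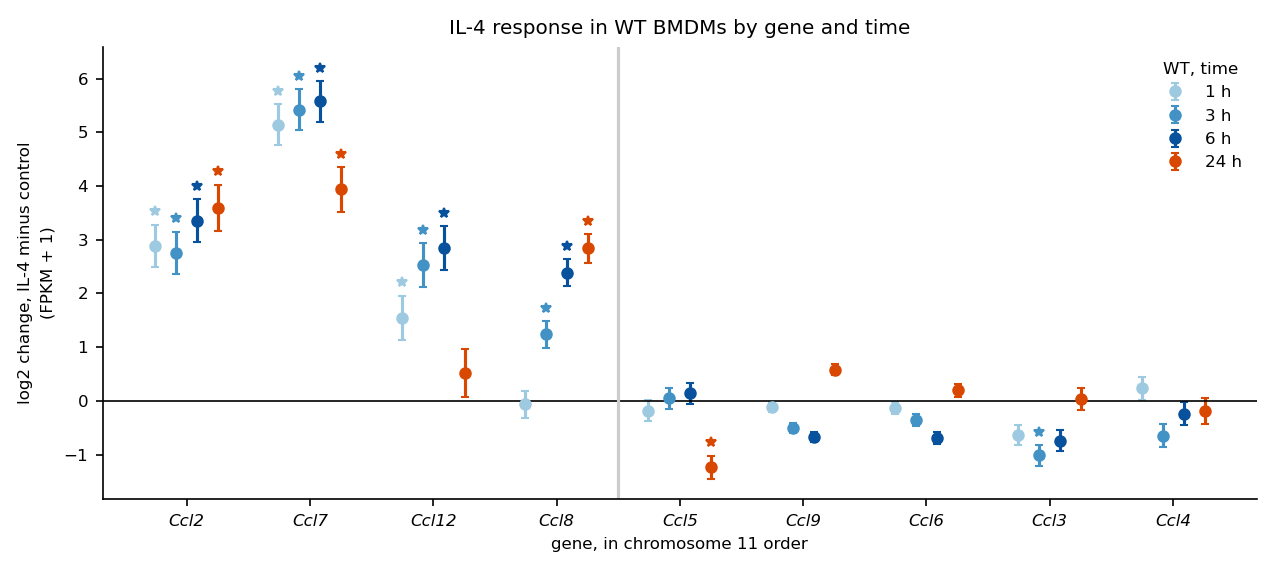
Log2 change with IL-4 in WT BMDMs (IL-4 minus control, FPKM + 1, y axis) at 4 times for the 9 genes in chromosome order, with points and SE bars from the fit with the replicate block and stars for called changes. The 4 genes left of the grey line rose at 1 or more times, to a maximum of 5.58 for Ccl7 at 6 h, while the 5 genes right of it stayed between -1.23 and 0.58.

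The second group changed by smaller amounts. Ccl3 (MIP-1 alpha), a ligand of CCR1, was at 89.2, 82.3, 71.7 and 65.7 FPKM in the 3 h controls and at 44.3, 46.8, 30.6 and 31.1 FPKM after IL-4. The IL-4 samples lay below the controls at 1, 3 and 6 h. At 3 h the change was -1.01 ± 0.31 (SE, adjusted p = 0.0122), called also with the block, and the call was lost without WT replicate 1, 3 or 4 (adjusted p = 0.0689 to 0.102). The changes of -0.63 at 1 h and -0.74 at 6 h did not reach a log2 change of 1, with adjusted p = 0.0161 and 0.00124 with the block. At 24 h, IL-4 replicate 2 was at 111 FPKM against 44.6 and 41.2 FPKM in the others, and the change was 0.01 ± 0.34 (adjusted p = 0.982). Its neighbour Ccl4 (MIP-1 beta), an attractant of monocytes and T cells, was at 143, 175, 147 and 97.8 FPKM in the 3 h controls and at 115, 116, 66.8 and 65.7 FPKM with IL-4. These ranges overlapped, and the change was -0.65 ± 0.62 (adjusted p = 0.511, with the block 0.016). After 24 h of IL-4, replicate 2 of Ccl4 was also apart, at 123 FPKM against 39.2 and 38.1 FPKM in the others.

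Ccl9, a CCR1 ligand, changed direction over time, with little spread between samples except after 24 h of IL-4. In that group replicate 2 stood above the others. At 6 h the controls were at 254, 285, 266 and 252 FPKM and the IL-4 samples at 159.8, 162, 151 and 192 FPKM. At 24 h the controls were at 241, 262, 251 and 238 FPKM and the IL-4 samples at 474, 329 and 330.5 FPKM. Neither pair of ranges overlapped. The changes at 3, 6 and 24 h were -0.51 ± 0.10 (SE, adjusted p = 0.000153), -0.67 ± 0.10 (adjusted p = 1.27e-06) and 0.58 ± 0.11 (adjusted p = 3.24e-05), in each case less than a log2 change of 1. The 24 h response exceeded the 1 h response by 0.69 ± 0.15 (adjusted p = 0.000325). Ccl6, also a CCR1 ligand, was at 102 ± 12.6 FPKM in the 6 h controls and 62.6 ± 4.23 FPKM with IL-4 (SD, n = 4 each, no overlap), a change of -0.69 ± 0.23 (adjusted p = 0.0138), and its change at 24 h was 0.20 ± 0.25 (adjusted p = 0.517).

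Ccl5, a ligand of CCR1, differed more between WT replicates than between treatments up to 6 h. The 6 h controls were at 352, 469, 121 and 97.6 FPKM and the IL-4 samples at 351, 384, 201 and 108 FPKM, with a change of 0.14 ± 0.20 (SE, adjusted p = 0.556) with the block. At 24 h the controls were at 264, 169, 100.1 and 58.8 FPKM and the IL-4 samples (replicates 2 to 4) at 89.9, 31.6 and 29.0 FPKM. The ranges overlapped, but each IL-4 sample was below the control of its own number. The change was -1.52 ± 1.53 (adjusted p = 0.408) without the block and -1.23 ± 0.21 (adjusted p = 6.06e-06) with it.

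**Figure D4:**
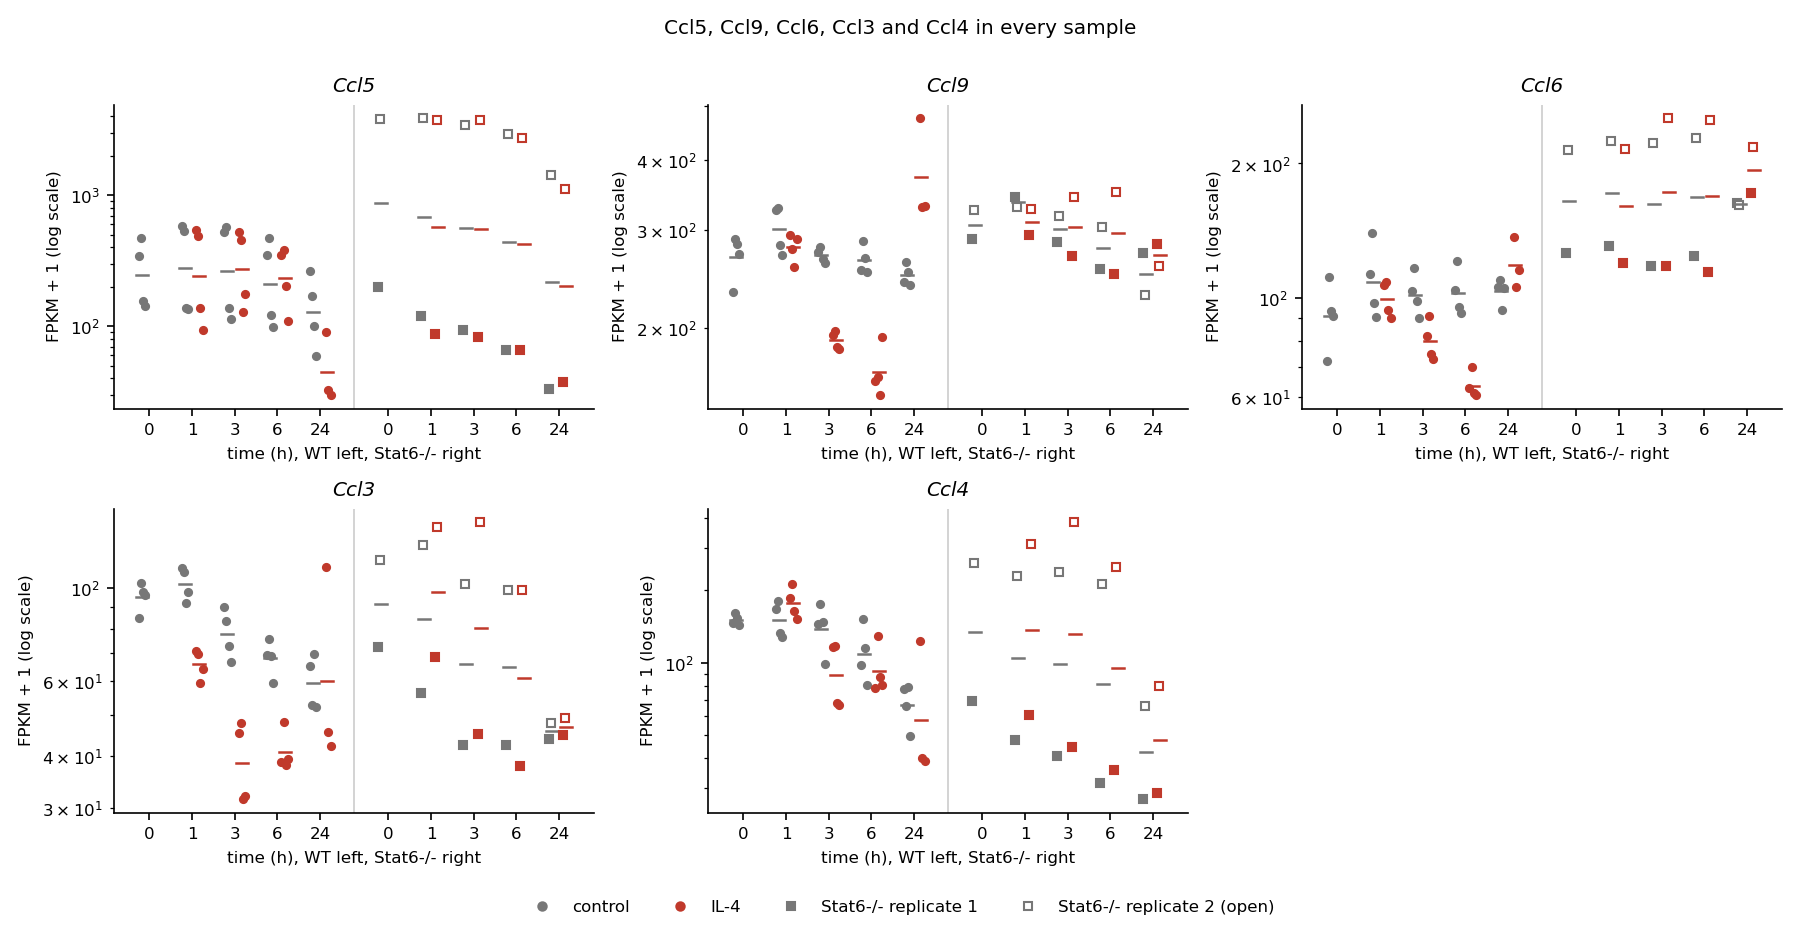
FPKM + 1 (log axis) of the genes of the second chromosome 11 group in every sample against time, with WT left and Stat6-/- right in each panel, grey for control, red for IL-4, open squares for Stat6-/- replicate 2 and bars for the mean of the log values. Ccl9 varies little between samples, while Ccl5 is at 1107 to 3862 FPKM in Stat6-/- replicate 2 and at 32.4 to 197 FPKM in replicate 1.

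Neighbouring genes were then compared directly. For each of the 7 neighbouring pairs within a group, the difference of the log2 values was taken in each WT sample from 1 to 24 h, and the treatment labels were permuted within time (two-sided permutation test, 100000 resamples, Benjamini-Hochberg over the 7 pairs). Averaged over the 4 times, the response of Ccl2 was lower than that of Ccl7 by 1.87 (a difference of -1.87, p = 1e-05, the smallest these permutations can give, adjusted p = 3.5e-05). By time, this difference was -2.26, -2.66 and -2.22 at 1, 3 and 6 h but -0.32 at 24 h. With a pseudocount of 0.1 the 24 h difference was -1.37. The response of Ccl7 exceeded that of Ccl12 by 3.15 (permutation p = 1e-05, adjusted p = 3.5e-05). In the second group, Ccl6 and Ccl3 differed by 0.35 (permutation p = 0.00198, adjusted p = 0.00346), with Ccl3 the lower, and Ccl3 and Ccl4 by -0.38 (permutation p = 0.00103, adjusted p = 0.0024), again with Ccl3 the lower. The difference between Ccl3 and Ccl4 was -0.87 at 1 h and 0.22 at 24 h. For Ccl12 and Ccl8 the mean difference was 0.27 (permutation p = 0.443). It went from 1.61 at 1 h to -2.28 at 24 h. For Ccl5 and Ccl9 it was -0.21 (permutation p = 0.622), with values of 0.81 at 6 h and -2.11 at 24 h, and for Ccl9 and Ccl6 it was 0.07 (permutation p = 0.28). An exact sign-flip test over the 15 IL-4 and control samples of the same number and time called the same 4 pairs. Both tests took the times of a replicate number as separate, although the same numbers recur at each time. Their p-values can therefore be too small.

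Without IL-4, several of these genes were lower after 24 h in culture. In WT controls Ccl2 went from 13.5, 26.1, 10.7 and 14.6 FPKM at 0 h to 3.36, 4.51, 2.16 and 2.38 FPKM at 24 h, with no overlap. Its change was -2.03 ± 1.03 (SE, adjusted p = 0.173) without the block and -2.03 ± 0.40 (adjusted p = 0.000113) with it. No gene of the 9 was called between 24 h and 0 h without the block (limma, 1 with an unadjusted p under 0.05, 0 by analysis of variance with Tukey's adjustment, 0.754% of loci called lower). With the block, Ccl2, Ccl7 (-1.85), Ccl12 (-1.13) and Ccl4 (-1.18) fell, 4 of 9 against 1.33% of loci. The same 4 genes were called with no block and without Stat6-/- replicate 2, against 1.32% of loci called lower. In Stat6-/- controls none was called without the block (limma, 1 with an unadjusted p under 0.05, 0 with Tukey's adjustment, 0.126% of loci called lower). With the block 7 of 9 fell (1.07% of loci), with changes down to -2.06 (Ccl7). Without replicate 2, and with no block, none of the 9 was called. Ccl2, Ccl7 and Ccl12 then changed by -0.37, -0.55 and 0.13, and Ccl5 and Ccl4 by -2.57 and -1.35.

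The next question was whether the responses needed STAT6. In Stat6-/- cells none of the 9 genes was called at any time or over the mean of the 4 times, with or without the block (limma, 0 of 9 with an unadjusted p under 0.05 in any of these 5 comparisons without the block, and 0 at each of the 4 times by analysis of variance with Tukey's adjustment, which was not run for the mean). Of all loci, 0% were called at each time without the block, and 0.00897% passed on adjusted p alone over the mean. With the block, 0, 1, 1 and 0 of the 9 had an unadjusted p under 0.05 at the 4 times and 3 over the mean, and 0.00897% of loci were called at 1, 3 and 6 h. Over the mean, Ccl7 changed by 1.00 ± 0.89 (SE, adjusted p = 1) without the block and by 1.00 ± 0.27 (adjusted p = 0.115) with it. Without replicate 2 the mean changes of Ccl7, Ccl2 and Ccl12 were 0.39, 0.28 and -0.07, and none of the 9 was called. Without replicate 1 they were 1.61, 1.23 and 1.62, and Ccl12 was called (SE 0.23, adjusted p = 0.000129), 1 of 9 against 0.0449% of loci. In both cases 1 sample stood for each knockout group, and the 4 times share a replicate number. The 2 replicates differed here too. In replicate 1, Ccl7 went from 1.04 FPKM in the 1 h control to 2.1 FPKM with IL-4, from 1.07 to 1.55 FPKM at 3 h, from 0.806 to 1.78 FPKM at 6 h and from 0.864 to 0.904 FPKM at 24 h. In replicate 2 it went from 73.5 to 184 FPKM, from 63.9 to 237 FPKM, from 38.3 to 143 FPKM and from 5.36 to 15.7 FPKM. The IL-4 sample was thus the higher of all 8 pairs, as it was for Ccl2 and Ccl4, which held for 2.1% of all loci.

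For Ccl2 the ratio of the IL-4 sample to its control was 1.11 to 1.46 in Stat6-/- replicate 1 and 2.12 to 2.66 in replicate 2. In replicate 2, only Ccl2, Ccl7 and the small nucleolar RNA locus Snora64 were higher with IL-4 by a log2 difference of at least 1 at all 4 times, of 11146 loci (0.0269%). For Ccl12 the ratio was 1.98 to 4.37 in replicate 2, whereas replicate 1 stayed below 1 FPKM with and without IL-4. Another IL-4-induced gene also differed between the replicates. Socs1, a feedback inhibitor of cytokine signalling, was at most 1.08 FPKM in replicate 1 and reached 5.15 FPKM in replicate 2, against 122 FPKM in WT. Whether these values belong together was not tested.

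**Figure D5:**
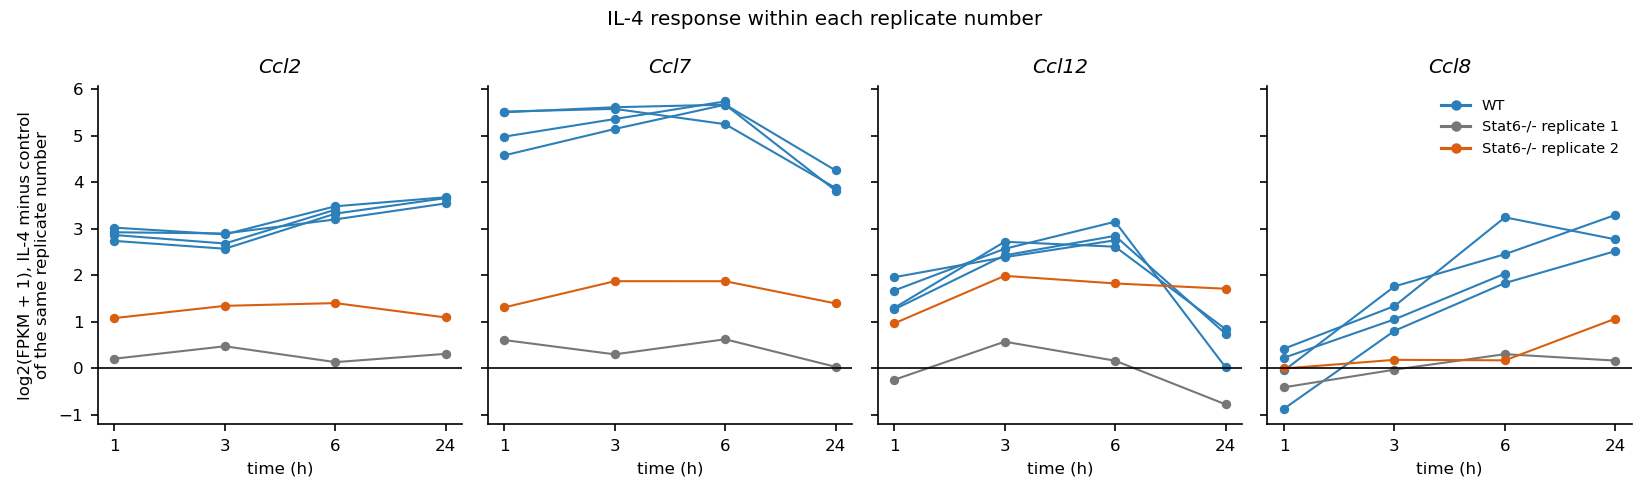
Difference in log2(FPKM + 1) between the IL-4 sample and the control of the same replicate number (y axis) against time for Ccl2, Ccl7, Ccl12 and Ccl8, with 1 line per WT replicate (blue), Stat6-/- replicate 1 (grey) and Stat6-/- replicate 2 (orange). For Ccl2 and Ccl7 the WT lines lie above both Stat6-/- lines at every time, and for Ccl12 at 24 h Stat6-/- replicate 2 lies above them.

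The difference between the genotypes in the IL-4 response, the interaction, was tested for itself. Without the block none of the 9 genes was called at 1, 3, 6 or 24 h (limma, 0, 2, 1 and 1 with an unadjusted p under 0.05; Tukey's adjustment was not run for interactions), against 0.915%, 2.42%, 2.59% and 3.34% of loci called higher in WT and 0.332%, 1.06%, 1.81% and 3.51% lower. With the block 2, 4, 4 and 4 were called, against 1.09%, 2.66%, 2.9% and 3.72% of loci higher and 0.458%, 1.41%, 2.54% and 5.03% lower. Ccl7 was called at all 4 times, with excesses in WT of 4.19 ± 0.66 (SE, adjusted p = 1.45e-05), 4.34 ± 0.66 (2.79e-06), 4.33 ± 0.66 (2.18e-06) and 3.22 ± 0.68 (0.000202) in order of time. Ccl2 was called at 1, 6 and 24 h (2.24, 2.59 and 2.89, adjusted p = 0.0367, 0.00355 and 0.00115), Ccl8 at 3, 6 and 24 h (1.16, 2.15 and 2.22, adjusted p = 0.0472, 0.000131 and 9.45e-05) and Ccl12 at 6 h (1.85, adjusted p = 0.0455). In the second group the responses of Ccl3 (-1.30, adjusted p = 0.00314) and Ccl4 (-1.06, adjusted p = 0.0415) at 3 h and of Ccl5 at 24 h (-1.14, adjusted p = 0.0081) were lower in WT. Without Stat6-/- replicate 2, 1 sample stood for each knockout group, so only the differences are given. In order of time, with no block, they were 2.68, 2.28, 3.22 and 3.27 for Ccl2 and 4.54, 5.12, 4.95 and 3.87 for Ccl7. For Ccl12 they were 1.79, 1.95, 2.68 and 1.30, and for Ccl8 0.34, 1.27, 2.09 and 2.63. For Ccl3 and Ccl4 at 3 h and Ccl5 at 24 h they were -1.10, -0.78 and -1.70. For Ccl9 at 6 h the interaction was -0.76 ± 0.18 (adjusted p = 0.00192) without the block, less than a log2 change of 1. By adjusted p alone, 0, 0, 1 and 0 of 9 passed at the 4 times, against 3.36%, 11.2%, 16.5% and 27% of loci.

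Levels in untreated cells were also compared between the genotypes, for which no block can be fitted. Over the mean of the 5 times, Ccl8 was higher in Stat6-/- controls by 2.24 ± 0.58 (SE, adjusted p = 0.00412), the only 1 of 9 called (0.0987% of loci called higher, 0.188% lower). Without replicate 2 its difference was 0.22 (adjusted p = 0.408). Ccl5 and Ccl4 were then lower in Stat6-/- controls by a log2 difference of -1.33 (adjusted p = 0.0429) and -1.53 (adjusted p = 6.38e-07), 2 of 9 against 0.476% of loci. Without replicate 1 instead, Ccl2, Ccl7, Ccl12, Ccl8, Ccl5 and Ccl6 were called higher in Stat6-/- controls, 6 of 9 against 1.18% of loci (1.01% lower), with differences of 1.04 (Ccl6) to 4.27 (Ccl8). At 0 h alone the same 6 were called higher (1.11% of loci, 1.36% lower). The times of a replicate number enter these means as separate samples although they deviate together, so that the p-values of the means rest on 2 knockout replicates, or on 1 where the other is left out, and are too small. Ccl6 was higher in Stat6-/- controls by 0.71 ± 0.13 (adjusted p = 5.34e-05), and by 0.38 without replicate 2 (adjusted p = 0.00126), in both cases less than a log2 change of 1. Ccl9 differed by 0.12 ± 0.06 (adjusted p = 0.139). By adjusted p alone, 2 of 9 passed over the mean (21.4% of loci) and 0 of 9 at 0 h (2.18%). At 0 h alone no gene of the 9 was called (limma, 1 with an unadjusted p under 0.05, 0 with Tukey's adjustment, 0.0807% of loci higher and 0.269% lower). The neutrophil marker sums given above also moved with the genotype, and their part in these values was not tested.

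The WT replicates had an order of their own. Ccl5 and Ccl7 were higher in both replicates 1 and 2 than in replicates 3 and 4 in all 8 WT groups of 4, which held for 137 of 11146 loci (1.23%). Ccl2, Ccl7 and Ccl6 were highest in replicate 2 in all 8 groups (0.736% of loci). Irf7 followed the same division in 8 of 8 groups, with a median of 541 FPKM in the controls of replicates 1 and 2 and 238 FPKM in those of replicates 3 and 4. The SD between replicates within a group, on the log2 scale, was 1.05 for Ccl5, 0.62 for Ccl7 and 0.51 for Ccl2 in WT, but 0.13 for Ccl9 and 0.18 for Ccl6. In Stat6-/- groups it was 3.67, 3.47 and 2.85 for the first 3 of these genes. The fit without a block pools both genotypes, and its SE for these genes carries that spread.

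Among the receptors of these ligands, 5 of 9 listed genes reached 1 FPKM. Ccr2, the receptor for the CCL2, CCL7 and CCL12 proteins, fell at 6 h from 62.6 ± 21.1 FPKM to 18.5 ± 7.50 FPKM (SD, n = 4 each), a change of -1.73 ± 0.54 (SE, adjusted p = 0.00905). Ccr1, a receptor for the CCL3, CCL5, CCL6 and CCL9 proteins, rose at 24 h from 5.43 ± 1.14 FPKM (n = 4) to 28.6 ± 4.07 FPKM (n = 3), a change of 2.21 ± 0.27 (adjusted p = 1.12e-08). None of the 5 was called at 1 or 3 h without the block. With the block, and with no block but without Stat6-/- replicate 2, Ccr2 was also called lower at 3 and 24 h. Of the other CC chemokines 5 of 11 were tested, and 0, 1, 2 and 3 of them rose at 1, 3, 6 and 24 h and none fell, against 1.09%, 2.61%, 3.18% and 3.91% of loci called higher. Ccl24, an eosinophil attractant, went from 0.421 ± 0.111 FPKM to 13.4 ± 3.98 FPKM at 6 h (n = 4 each, change 3.31, adjusted p = 2.44e-13). Ccl22, a ligand of CCR4, went from 1.73 ± 0.861 FPKM (n = 4) to 53.5 ± 19.1 FPKM (n = 3) at 24 h (change 4.32, adjusted p = 8.16e-19), and Ccl17, which shares that receptor, was listed at 0 in the 4 controls and at 1.95 ± 0.2 FPKM with IL-4 (n = 3).

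Of 25 tested regulators of inflammatory transcription, 3 rose and 3 fell at 1 h, 3 rose and 3 fell at 3 h, 4 rose and 1 fell at 6 h, and 2 rose and 6 fell at 24 h. Of all loci, 1.09%, 2.61%, 3.18% and 3.91% were called higher and 0.395%, 1.27%, 2.36% and 4.58% lower at these times. Socs1 rose most, from 0.592 ± 0.172 FPKM to 95.3 ± 21.1 FPKM at 1 h (SD, n = 4 each, change 5.90, adjusted p = 3.04e-20). At 24 h Il1b, which encodes the cytokine IL-1 beta, fell from 32.9 ± 12.3 FPKM (n = 4) to 0.575 ± 0.25 FPKM (n = 3, change -4.37, adjusted p = 6.65e-07). Nfkbiz, which encodes a nuclear NF-kB cofactor, changed by -3.16 (adjusted p = 7.62e-08) and Irf7 by -2.43 (adjusted p = 0.0209) at the same time.

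Over the 53 samples, the locus whose log2 values were most like those of Ccl2 was its neighbour Ccl7 (Pearson r = 0.97), and the reverse was also true. The second was Scimp for Ccl2 (r = 0.933) and Csrnp1 for Ccl7 (r = 0.927). The nearest loci were Ms4a6d (r = 0.95) and Gbp4 for Ccl12 (r = 0.927), Rrbp1 (r = 0.881) and Tlr1 (r = 0.876) for Ccl8, and Cfb (r = 0.969) and Slfn4 (r = 0.96) for Ccl5. In the second group they were Elovl5 (r = 0.868) and Slc23a2 (r = 0.839) for Ccl9, Rab4a (r = 0.888) and Loxl3 (r = 0.861) for Ccl6, Slc20a1 (r = 0.877) and D8Ertd82e (r = 0.846) for Ccl3, and Tpst1 (r = 0.928) and Phf11d (r = 0.909) for Ccl4. These correlations describe samples that share treatment, time and replicate, and include Stat6-/- replicate 2. Within the 35 WT samples Ccl2 and Ccl7 were still each other's nearest locus (r = 0.978), and Cfb that of Ccl5 (r = 0.947). For the other 6 genes the nearest locus in WT was a different one: Plek for Ccl12 (r = 0.964), 6330416G13Rik for Ccl8 (r = 0.94), Vopp1 for Ccl9 (r = 0.933), Leprotl1 for Ccl6 (r = 0.889), Capn5 for Ccl3 (r = 0.882) and Sept6 for Ccl4 (r = 0.9).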

How the data were processed

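Bone marrow-derived macrophages of WT and Stat6-/- mice were profiled by RNA-seq of polyadenylated RNA, prepared from 1 µg of total RNA without strand marking. According to the submitters' processing notes, reads were mapped to mm10 with TopHat2 2.0.7 and quantified with Cufflinks 2.0.2. The authors deposited FPKM values, with 1 table for each sample. The gene annotation was not given in the sources used here. FPKM is scaled within a sample, and with no counts the absolute depth is unknown. Relative depth was recovered from ratios of FPKM at low loci (2% tolerance, met by 100% of 1378 sample pairs). P-values rest on the spread between these samples, and the fit without a block counts the times of a replicate number as separate samples.

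Tables were joined on locus and symbol (23847 loci), and groups were read from the sample labels. The 11146 loci that reached 1 FPKM in any sample (all 9 chemokines among them) were transformed as log2(FPKM + 1). They were fitted with a mean for each of 18 groups over 53 samples in limma 3.58.1 (trend, R 4.3.3, 35 residual degrees of freedom), tests being two-sided. Tested on simulated data for the WT response at 3 h over 11146 loci, the fit recovered 96 of 100 genes changed by a log2 of 1.5 and 100 of 100 changed by 3, with 0 false calls. The simulated noise was normal and independent between samples, without a shared replicate effect, and only loci above a minimum mean level were changed. These rates do not carry over to chemokines with a wide spread, such as Ccl2, whose change of 2.89 ± 1.03 (SE) at 1 h was not called. Neighbour pairs, tables and figures used Python 3.11.15, numpy 2.4.6, pandas 2.3.3 and scipy 1.17.1.

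Groups of a genotype share replicate numbers, and the study describes its WT data as individual animals, so the number within genotype was treated as pairing samples and added as a block in a second fit. Residuals of same-numbered IL-4 and control samples correlated at 0.0265 to 0.561 in WT (above 0.1 in 13 of 15 pairs) and 0.791 to 0.9 in Stat6-/-. In 12 of the 15 WT pairs the own number correlated best, and the exceptions were all of replicate 3, whose pairing is thus less certain. The genotype comparison cannot carry the block. Other alternatives were a pseudocount of 0.1, no filter, a filter on every sample of a group, quantile normalization, fewer samples in the fit, adjusted p alone, leaving out each replicate, and analysis of variance with Tukey's adjustment for differences between 2 groups.

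The genes, lists and comparisons were chosen with earlier results of these data known. Named beside the 9 genes were, of each list, up to 4 called genes with the largest WT change, every locus within the chromosome 11 groups, and the 2 loci most correlated with each gene. Shared 50-base stretches were counted in GENCODE transcripts: Ccl9 shared 1.97% of them with other genes and the other 8 chemokines 0%. A receptor of the receptor list is not reported here by name.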

Additional observations from a re-analysis of the deposited data

Results flagged for a closer look

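In 4 of 72 sets of a gene in a WT group of 4 samples, 1 sample lay far from the others by Dixon's criterion, where chance gives about 1 in 20 (3.6 sets). Ccl7 was at 3.49 FPKM in the 6 h control of replicate 2 and at 1.27 to 1.63 FPKM in the others. Ccl8 was at 0.386 FPKM in the 6 h control of replicate 3 and at 0.762 to 0.819 FPKM in the others. After 6 h of IL-4, replicate 2 was at 47.1 FPKM for Ccl3 (others 37.0 to 38.3 FPKM) and at 128 FPKM for Ccl4 (others 77.7 to 85.9 FPKM).

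The IL-4 response differed between the genotypes in 14 cases and between 24 h and 1 h in WT in 2, in the limma fit with the replicate block (Benjamini-Hochberg adjusted), and in 0 without the block. For 24 h minus 1 h, 4.38% of all loci were called higher and 5.61% lower with the block, and 4.18% and 4.8% without it. The shares for the genotype difference are given above. WT exceeded Stat6-/- for Ccl7 by a log2 difference of 4.19, 4.34, 4.33 and 3.22 at 1, 3, 6 and 24 h, and for Ccl2 by 2.24, 2.59 and 2.89 at 1, 6 and 24 h. It did so for Ccl8 by 1.16, 2.15 and 2.22 at 3, 6 and 24 h and for Ccl12 by 1.85 at 6 h. The difference was -1.30 for Ccl3 and -1.06 for Ccl4 at 3 h, and -1.14 for Ccl5 at 24 h. In WT, the response at 24 h minus that at 1 h was 2.91 for Ccl8 and -1.05 for Ccl5.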

How the results depend on the processing

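Counts below are of the 9 genes called. Where no share of all loci stands beside a count, the count shows only how the calls moved with the setting. With the replicate block, 3 were called in WT at 1 h, 5 at 3 h, 2, 4, 4 and 4 for the interaction at 1, 3, 6 and 24 h, 4 and 7 for controls of 24 h against 0 h in WT and Stat6-/-, and 2 for the WT response at 24 h minus 1 h. For 24 h minus 1 h, 4.38% of all loci were called higher and 5.61% lower. The shares for the other counts with the block are given with the results above. With only the samples compared or only WT samples, there were 3, 5, 4 and 2 for the WT comparisons of this list, and 1 for the interaction at 24 h. Combinations chosen after seeing the data, WT samples with the block and the replicate block without Stat6-/- replicate 2, gave 3, 5, 4 and 4. Analysis of variance with Tukey's adjustment gave 1, 1 and 0 in WT at 3, 6 and 24 h. Adjusted p alone gave 5 in WT at 6 h, 1 for the interaction at 6 h, 2 for Stat6-/- against WT controls over the mean and 1 for 24 h minus 1 h. The shares of all loci were 41.2%, 16.5%, 21.4% and 44.5%.

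Leaving out 1 replicate, also from WT samples with the block, gave 0 to 3, 1 to 5, 1 to 4 and 0 to 4 in WT at 1, 3, 6 and 24 h, and 0 to 2, 0 to 3, 0 to 4 and 0 to 3 for the interaction. It gave 0 to 4 for 24 h minus 1 h, 0 to 1 for the Stat6-/- mean response, 0 to 6 and 1 to 6 for Stat6-/- against WT controls at 0 h and over the mean, 0 to 5 and 0 to 6 for the 24 h controls of WT and Stat6-/-, and 0 to 1 for WT controls of 6 h. A lone knockout sample was assumed to vary like the other groups.

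Of 326 counts, 244 stayed within 1.5 times, and of 512 single-gene values 0 reversed, 39 lost and 99 gained a call. With no filter, calls of Ccl2 at 3 h, Ccl12 at 6 h and Ccl8 at 24 h were lost. The cause was not tested. With the replicate block, 20 single-gene values gained a call and 0 lost one. Each knockout group holds 2 samples, and absolute depth is unknown.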
